A study of Homo sapiens with 6 samples.

Results

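A set of 10 apolipoprotein genes was followed through 4 lists of regions occupied by RNA polymerase II (RNA pol II) in HepG2 cells. The genes were APOA1, APOA2, APOA4, APOA5, APOB, APOC1, APOC3, APOE, APOH and APOM, out of 16428 genes named in the lists. A region belonged to a gene when the deposited annotation gave that gene's symbol, and 124 of 271336 regions did so. HepG2 is a cell line from a human liver tumor. ChIP-seq of RPB1, which is the largest RNA pol II subunit, was done in SHP-1-WT cells (WT) and in SHP-1-KO cells (KO), to ask how loss of SHP-1, a tyrosine phosphatase encoded by PTPN6, bears on polymerase occupancy. RPB1 phosphorylated on Ser2 of its C-terminal repeats (pSer2) was profiled in the same cells. All cells were untreated. The KO cells were a CRISPR knockout grown from a single cell, and more than 1 such clone was made, so a clone and the knockout cannot be told apart here. The WT cells were their control. The paper shows untransfected cells and cells given a nontargeting guide, and does not say which served for ChIP-seq. The clone used for ChIP-seq is not given in the sources used here. Each antibody and genotype had 1 library, so differences were not checked by replicates and carry no p-value. Each region has a fold enrichment, the ratio of ChIP to input signal at its summit, which is the position of highest signal. The lists hold no read counts, and the depth of the libraries is unknown.

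Apolipoproteins are the protein components of lipoproteins, the particles that carry cholesterol and triglycerides in blood. They hold the particle together, bind its receptors, and activate or restrain the enzymes that empty it, and hepatocytes secrete most of them. RNA pol II gathers near the start of active genes, and the Ser2 mark is added as it transcribes, so that pSer2 is usually strongest toward the end of a gene and just past it.

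The starts of APOA2, APOA5, APOE and APOH are shown because the results turn on them. They come from RefSeq promoters on GRCh38.p14, which were found for 7 of the 10 genes (10 promoters) and not for APOA1, APOB and APOC3. Each runs 5′ to 3′ on the gene's strand over 300 bases, with the 250 bases before the start in lower case and the 50 bases from the start on in capitals. APOA5 has a pair of annotated starts, and its upstream start is listed first. APOE is shown at its start at 44905796, and its further annotated starts at 44906021 and 44906401 are not shown.
APOA2, chr1:161223579-161223878, minus strand: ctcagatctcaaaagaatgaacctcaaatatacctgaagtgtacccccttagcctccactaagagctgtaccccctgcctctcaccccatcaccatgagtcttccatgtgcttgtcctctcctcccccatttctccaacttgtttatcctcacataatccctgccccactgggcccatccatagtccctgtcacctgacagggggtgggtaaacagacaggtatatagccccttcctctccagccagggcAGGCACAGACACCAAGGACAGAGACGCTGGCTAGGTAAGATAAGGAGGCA
APOA5 upstream start, chr11:116792371-116792670, minus strand: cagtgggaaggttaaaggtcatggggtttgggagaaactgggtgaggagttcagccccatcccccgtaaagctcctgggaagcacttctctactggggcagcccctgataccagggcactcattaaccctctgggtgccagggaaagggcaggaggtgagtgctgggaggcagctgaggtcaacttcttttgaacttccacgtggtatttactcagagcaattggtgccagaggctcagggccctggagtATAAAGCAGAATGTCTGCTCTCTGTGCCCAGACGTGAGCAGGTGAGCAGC
APOA5 downstream start, chr11:116791830-116792129, minus strand: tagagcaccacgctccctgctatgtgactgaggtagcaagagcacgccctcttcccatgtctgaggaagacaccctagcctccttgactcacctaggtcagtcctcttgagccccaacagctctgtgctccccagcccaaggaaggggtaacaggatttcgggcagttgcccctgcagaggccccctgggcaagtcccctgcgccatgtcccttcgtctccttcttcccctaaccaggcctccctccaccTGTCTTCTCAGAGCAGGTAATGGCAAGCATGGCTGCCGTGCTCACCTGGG
APOE, chr19:44905546-44905845, plus strand: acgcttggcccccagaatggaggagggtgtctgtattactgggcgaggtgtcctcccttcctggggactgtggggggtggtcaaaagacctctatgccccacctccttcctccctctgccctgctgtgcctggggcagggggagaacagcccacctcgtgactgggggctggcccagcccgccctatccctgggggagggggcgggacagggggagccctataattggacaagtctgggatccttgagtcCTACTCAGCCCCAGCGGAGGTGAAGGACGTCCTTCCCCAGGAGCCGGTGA
APOH, chr17:66229366-66229665, minus strand: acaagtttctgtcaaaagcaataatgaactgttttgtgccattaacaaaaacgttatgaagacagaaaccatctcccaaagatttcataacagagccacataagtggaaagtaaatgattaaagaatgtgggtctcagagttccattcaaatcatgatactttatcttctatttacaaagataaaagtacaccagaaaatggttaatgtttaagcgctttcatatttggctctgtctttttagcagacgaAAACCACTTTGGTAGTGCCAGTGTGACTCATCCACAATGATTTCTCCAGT

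In the WT RPB1 list, all 5 of these promoters lay wholly inside a region. In the KO list, the promoters of APOA2, APOE and APOH were still covered over 100% of their length. Only 32.7% of the upstream APOA5 promoter and 10.7% of the downstream one were covered there. The promoters differed in base composition, with a GC content of 35% at APOH and 65% at APOE. Among the 10 promoters, the TATA box letters TATAAA on the gene strand were found in 1, the upstream start of APOA5, where they begin 1 base before the annotated start. These letters occur in 7.33% of 35116 RefSeq promoters, and at 40 to 20 bases before the start, where they occur in 2.3%, none of the 10 held them. No match was found on either strand for letters of the liver factors HNF4 (CAAAGTCCA, in 0.384% of all promoters), HNF1 (GTTAATNAT, 0.792%) and C/EBP (TTGCNNAA, 10.5%), or for the STAT5 palindrome (TTCNNNGAA, 7.66%). This says only that these letters are absent from the 300 bases.

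Most hepatocyte markers had regions, although their enrichments overlapped those of a few markers of other cell types. Of 9 hepatocyte markers, 8 had an RPB1 region in WT and in KO cells, with their strongest regions between 7.25 and 93.8 fold and between 5.22 and 64.8 fold. FOXA2 had no RPB1 region under its symbol, and FGB was the lowest of the 8 in each cell type. Of 8 markers of other cell types, 3 had an RPB1 region in WT and 2 in KO cells, none above 7.87 fold. Of these, PECAM1 had 7.45 fold in WT and 7.87 fold in KO cells, above FGB. For pSer2, all 9 hepatocyte markers in WT and 8 in KO cells had a region. Their strongest regions lay between 2.84 and 28.7 fold and between 4.27 and 24.2 fold. GFAP (13.5 and 8.03 fold) and PECAM1 (9.75 and 7.67 fold) lay inside these ranges in WT and KO cells. PTPN6 still had an RPB1 region of 24.0 fold in WT and of 17.2 fold in KO cells, and its occupancy is no measure of the SHP-1 protein. Across 12877 genes with an RPB1 region in both lists, the median KO to WT ratio of the strongest region was 0.742, and 82.1% of the genes were lower in KO cells. Across 10870 genes the pSer2 median was 0.936. A difference between the cells and one between the immunoprecipitations cannot be told apart from 1 library each, so ratios of the apolipoprotein genes are given beside these medians.

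APOB encodes the large structural protein of VLDL and LDL. Its gene lies on chromosome 2 from 21001429 to 21044073 on the minus strand, and it lay wholly inside a region in each of the 4 lists. The RPB1 region was 44449 bp long in WT cells (21001228 to 21045676) and 43513 bp long in KO cells (21001222 to 21044734), and each was the longest of its list. The pSer2 regions over the gene were 43113 bp in WT and 43192 bp in KO cells, the 3rd and 4th longest of their lists. The RPB1 fold enrichment was 82.1 in WT and 63.8 in KO cells, a ratio of 0.776, close to the median over all genes. The summits lay 59 bp and 51 bp after the start, in the 5′ UTR. A second RPB1 region past the end of the gene showed the opposite order, with 31.5 fold in WT (20997490 to 21000858) and 38.5 fold in KO cells (20997788 to 21000885), a ratio of 1.22. The strongest pSer2 regions lay at the same place, with summits 1950 bp and 1579 bp past the end, and measured 26.0 fold in WT and 20.9 fold in KO cells. Far upstream, an RPB1 region at 21070119 to 21071286 measured 10.4 fold in WT cells, and the overlapping KO region measured 14.0 fold, with summits 26512 bp and 26590 bp before the start. A nearer upstream region, with summits 12353 bp and 12330 bp before the start, measured 5.49 fold in WT and 4.24 fold in KO cells. RPB1 enrichment in KO cells was thus lower at the start of APOB and at the nearer upstream region, and higher past the end and at the farther one.

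**Figure D1:**
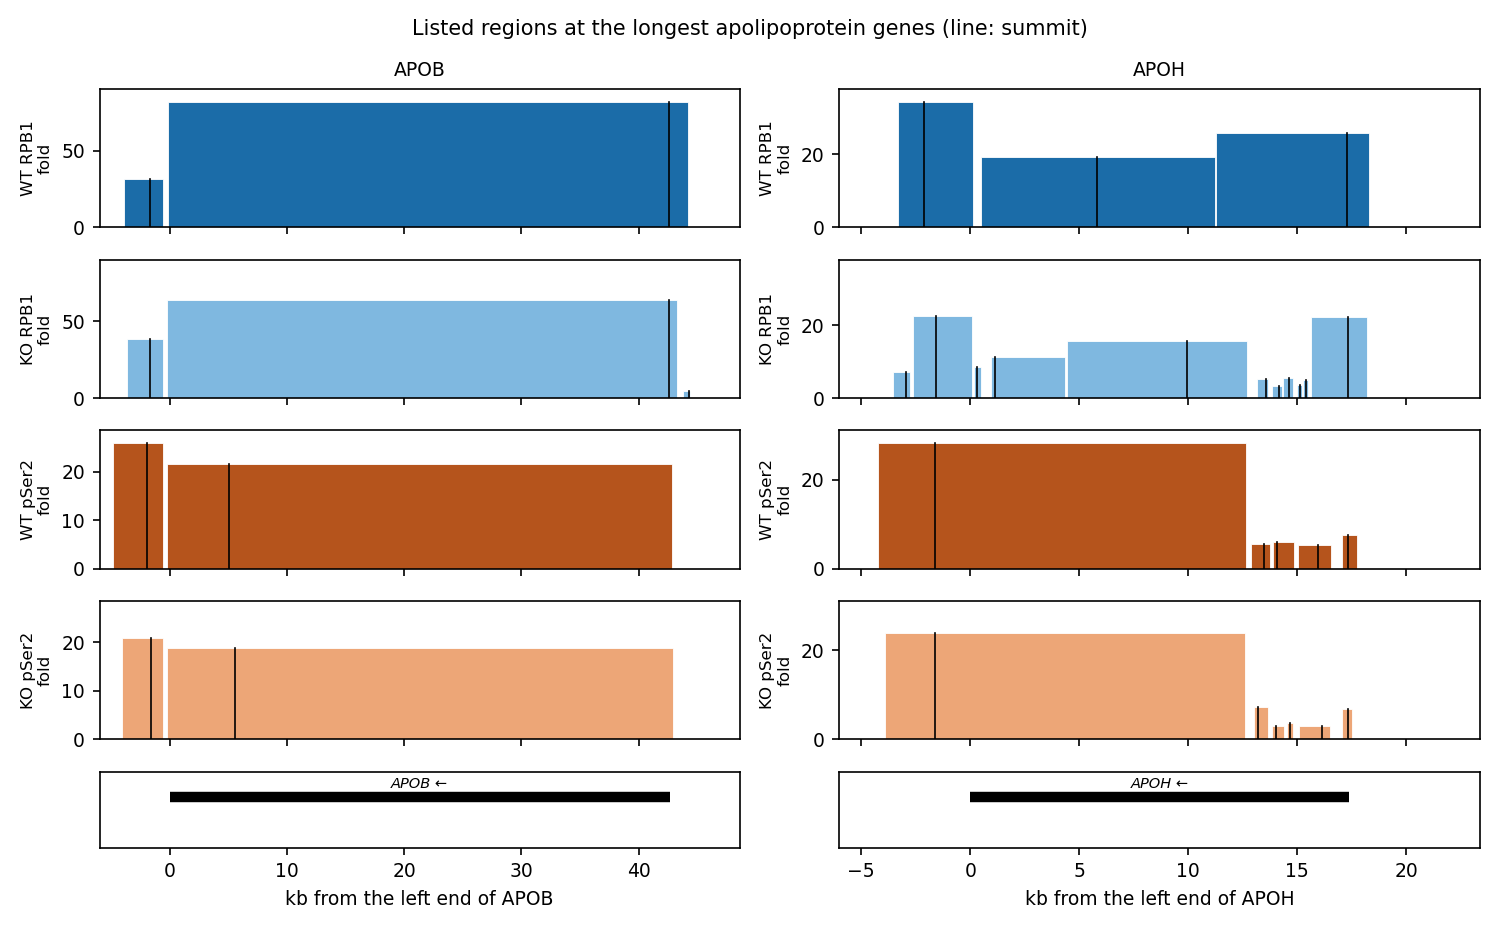
Listed regions at APOB and APOH, with 1 row per list (height: fold enrichment at the summit, black line: summit position) and the gene below, in kb from the left end of the gene, which is its 3′ end for both. A region over the whole of APOB, from 43113 to 44449 bp long, is seen in each list, whereas the 3 RPB1 regions at APOH in WT cells are 11 in KO cells.

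APOA1 and APOA2 encode the main structural proteins of HDL. By symbol, APOA1 had 1 RPB1 region in WT cells, of 4.02 fold and 3531 bp upstream of the start, and none in KO cells. The region over the APOA1 gene (chromosome 11, 116835751 to 116837622, minus strand) was listed under its antisense transcript APOA1-AS instead. That region measured 51.0 fold in WT (116831932 to 116838162) and 46.3 fold in KO cells (116833675 to 116837948), a ratio of 0.908, and its summit lay 37 bp and 36 bp after the APOA1 start. APOA1 was therefore covered over 100% of its length by RPB1 in both cells, although its symbol alone shows almost nothing. APOA1-AS and the other neighbours of the apolipoprotein genes are named after their values were seen.

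The assignment also turned the direction of pSer2 at APOA1. By symbol, its strongest pSer2 region was 3.91 fold in WT and 9.46 fold in KO cells, a ratio of 2.42. In WT cells, however, a pSer2 region of 21.9 fold listed under APOA1-AS (116832266 to 116837801) covered the whole gene. In KO cells that stretch held separate regions, of 9.45 fold past the end, 4.64 fold inside the gene and 9.46 fold at the start, and 54.7% of the gene was covered. The WT summit lay 1499 bp past the end of APOA1 and 1180 bp past the end of APOC3. The KO region of 9.45 fold had its summit at nearly the same place, 1504 bp past the end of APOA1, a ratio of 0.431. At the start of APOA1 the WT list held no summit to set beside the 9.46 fold in KO cells. These genes run toward each other and ChIP-seq does not tell strands apart, so the enrichment between them cannot be divided.

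APOA2 (chromosome 1, 161222292 to 161223628, minus strand) had an RPB1 region of 66.3 fold in WT cells (161217466 to 161226755), ranked 561 in its list. The KO list held no region under its symbol. A region listed under MIR5187 (161216161 to 161227444) covered the gene there with 57.0 fold, a ratio of 0.860, and its summit lay 71 bp after the APOA2 start against 53 bp in WT cells. The pSer2 region over APOA2 measured 22.0 fold in WT and 14.0 fold in KO cells, a ratio of 0.638 that lay at percentile 9.48 of all genes. Its summit was 39 bp after the start in WT cells and 1421 bp past the end in KO cells, so the ratio does not compare the same position. With regions assigned by a summit on the gene or within 1 kb of it, the ratio was 0.172. The KO value was then that of a region of 3.78 fold with its summit 932 bp upstream of the start.

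**Figure D2:**
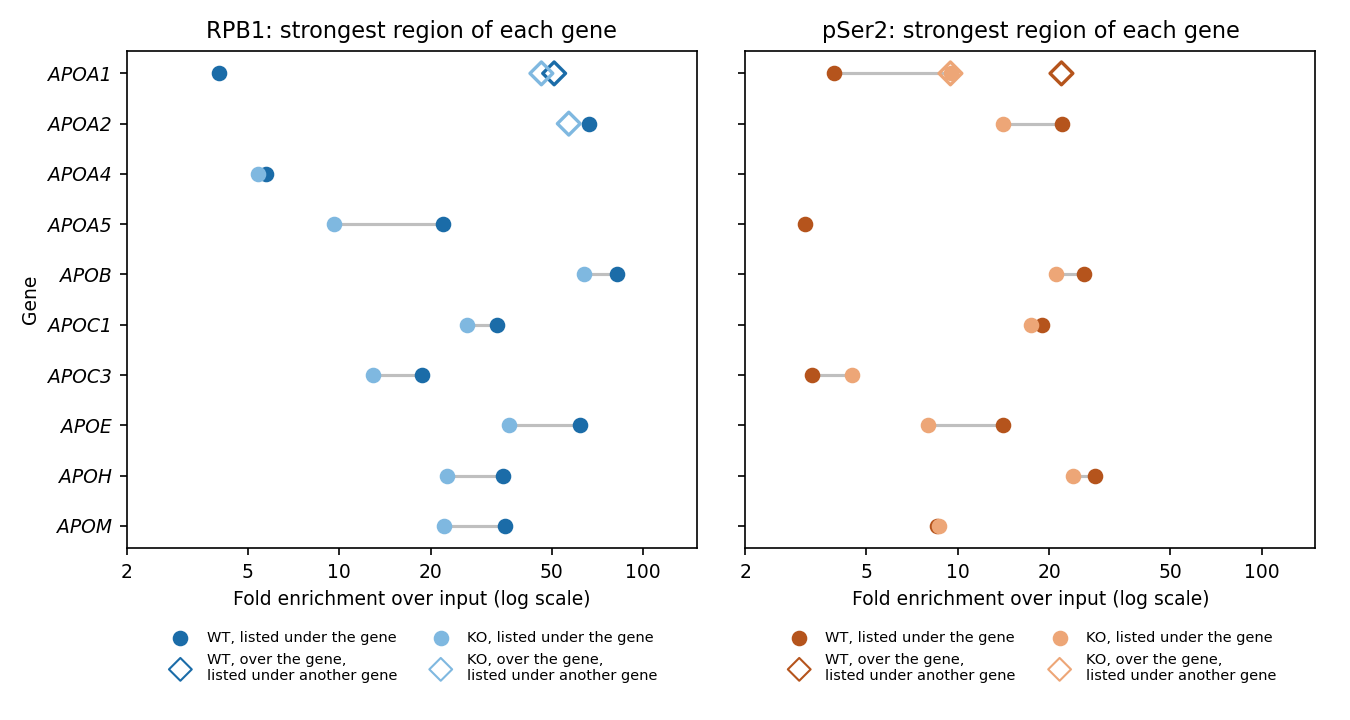
Fold enrichment over input (log scale) of the strongest region of each gene in WT and KO cells, for RPB1 and pSer2 (filled points: regions listed under the gene, open diamonds: regions over APOA1 or APOA2 listed under another gene, 1 library each). The open diamonds place APOA1 at 51.0 and 46.3 fold for RPB1, and at 21.9 fold in WT cells for pSer2, far from its filled points.

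APOE, the ligand of the LDL receptor family, and APOC1, which slows the clearance of lipoproteins, lie next to each other on chromosome 19. The APOE gene (44905796 to 44909393, plus strand) had an RPB1 region of 62.1 fold in WT cells (44903698 to 44912555) and of 36.4 fold in KO cells (44903666 to 44908097), a ratio of 0.585. Both summits lay at the same base, 32 bp after the start. Downstream of it the KO list had a further region of 21.7 fold (44908153 to 44911489), with its summit 1081 bp past the end of APOE, so that 1 long region in WT cells corresponded to 4 in KO cells. The pSer2 region that reached over the start of APOE was 14.1 fold in WT (44903522 to 44906919) and 7.96 fold in KO cells (44903549 to 44906941), a ratio of 0.566 at percentile 4.89. Its summits lay upstream of the start, by 1617 bp and 1768 bp, just past the end of the neighbouring gene TOMM40. The pSer2 region just past the end of APOE, which was listed under APOC1, measured 18.9 fold in WT (44909003 to 44911775) and 17.4 fold in KO cells (44909632 to 44911704), a ratio of 0.918. With regions assigned by a summit on the gene or within 1 kb of it, the pSer2 ratio of APOE was this 0.918, so the 0.566 describes the stretch between TOMM40 and APOE.

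APOC1 (44914608 to 44919346, plus strand) had RPB1 regions of 33.1 fold in WT and 26.4 fold in KO cells at its start, with summits 138 bp and 139 bp after it and a ratio of 0.799. A region of 6811 bp covered the gene in WT cells, whereas 5 regions covered 88.1% of it in KO cells, with 7.92 to 12.1 fold past the one at the start. For pSer2, the start of APOC1 had 5.54 fold in WT and 7.67 fold in KO cells, and the region at the gene end had 7.56 fold and 10.9 fold, with summits 252 bp and 248 bp past the end. Both pSer2 regions were higher in KO cells, with ratios of 1.38 and 1.44, which is below the 1.5-fold used for a call.

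**Figure D3:**
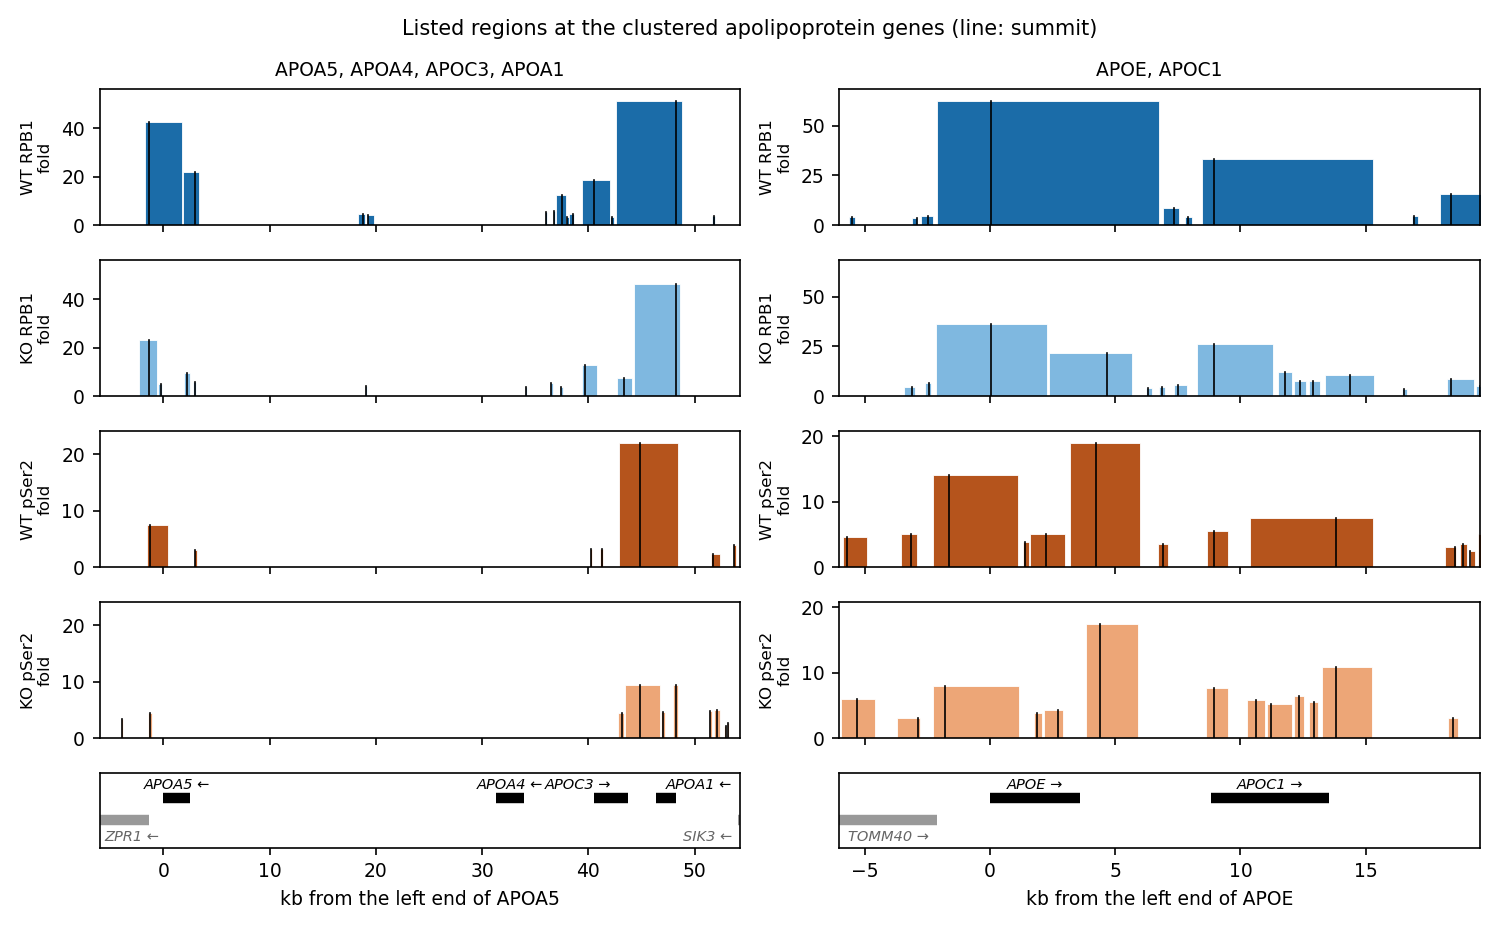
Listed regions over the APOA5, APOA4, APOC3 and APOA1 genes and over APOE and APOC1, with 1 row per list (height: fold enrichment at the summit, black line: summit position), in kb from the left end of the leftmost apolipoprotein gene, with other genes in grey. No region lies over APOA4, and the long WT RPB1 regions at APOE and APOC1 are divided in KO cells.

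APOC3 and APOA5 act in opposite directions on lipoprotein lipase, the enzyme that releases fatty acids from triglycerides, since APOC3 inhibits it and APOA5 favours its action. APOC3 (chromosome 11, 116829907 to 116833072, plus strand) had an RPB1 region of 18.8 fold in WT (116828782 to 116831361) and of 12.9 fold in KO cells (116828788 to 116830193), a ratio of 0.688. The summit lay 9 bp after the start in WT cells and 894 bp before it in KO cells. An upstream region at 116826326 to 116827224 had 12.4 fold in WT cells, against 4.01 fold in the overlapping KO region, a ratio of 0.324. The strongest pSer2 regions under the APOC3 symbol did not overlap, with 3.32 fold in WT (116830490 to 116830780) and 4.48 fold in KO cells (116832153 to 116832718), a ratio of 1.35. Among the strongest regions of all genes they stood at percentiles 7.49 and 30.0. Among all regions of their lists they stood at 33.9 and 71.5. The KO region overlapped the WT region of 21.9 fold listed under APOA1-AS, and with the gene extended by 3 kb the ratio of the strongest regions turned to 0.431.

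APOA5 (chromosome 11, 116789367 to 116791879, minus strand) had the lowest RPB1 ratio of the apolipoprotein genes by the strongest region under each symbol, 0.438, at percentile 5.34 of all genes. With genes extended by 3 kb APOC1 was lower (0.426 against 0.55), but neither value measures the named gene. The 0.426 sets the APOE region of 62.1 fold in WT cells against the APOC1 region of 26.4 fold in KO cells. The 0.55 is the ratio of the ZPR1 region. With the median of a gene's regions APOH was lower (0.273 against 0.35). The region of APOA5 measured 22.0 fold in WT (116791196 to 116792679) and 9.63 fold in KO cells (116791269 to 116791851). A further KO region of 5.73 fold lay at 116792120 to 116792468, over the upstream start shown above. The WT summit, at 116792322, lay 443 bp upstream of the downstream start, and the stronger KO summit lay 302 bp after it. The ratio of 0.438 thus does not compare the same position. The WT summit fell inside the KO region of 5.73 fold, and against that region the ratio was 0.261. RPB1 regions covered 95.7% of the gene in WT and 23.2% in KO cells, and the WT coverage included the region of ZPR1, whose start lies just downstream of the APOA5 end and which had 42.4 fold in WT and 23.4 fold in KO cells. A weak pSer2 region of 3.13 fold was listed under APOA5 in WT cells, and none in KO cells.

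APOA4, an apolipoprotein made mainly by the intestine, had no region over its gene (chromosome 11, 116820700 to 116823304, minus strand) in any list. The regions under its symbol lay outside the gene, with 4.44 to 5.77 fold in 4 WT RPB1 regions and 3.70 to 5.41 fold in 3 KO RPB1 regions. The KO region of 3.70 fold had its summit 191 bp before the start and covered 62.7% of the RefSeq promoter, which no WT RPB1 region covered. No pSer2 region was listed under APOA4 in either cell type. Its RPB1 ratio of 0.939 compares a region of 5.77 fold 2851 bp upstream of the start with another of 5.41 fold 2539 bp upstream, which do not overlap.

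APOH, which encodes beta-2-glycoprotein I, a plasma protein that binds phospholipids, had its highest enrichments past the gene end. The gene lies on chromosome 17 from 66212033 to 66229415 on the minus strand. Its RPB1 region past the end had 34.5 fold in WT (66208703 to 66212183) and 22.6 fold in KO cells (66209417 to 66212135), a ratio of 0.655, whereas the region at its start had 25.8 fold and 22.2 fold, a ratio of 0.861. The pSer2 region past the end and over the 3′ part of the gene measured 28.2 fold in WT (66207784 to 66224695) and 23.9 fold in KO cells (66208142 to 66224622), ranked 53 and 74 in their lists. Its summits lay 1609 bp and 1605 bp past the end. At the start, pSer2 had 7.62 fold and 6.86 fold, so the gene end exceeded the start in both cells.

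APOM, an HDL protein that carries sphingosine 1-phosphate, lies on chromosome 6 from 31655894 to 31658210 on the plus strand. Its RPB1 region had 35.1 fold in WT (31651078 to 31657001) and 22.1 fold in KO cells (31651141 to 31656961), a ratio of 0.629. The summit lay 73 bp after the start in WT cells and 2849 bp before it in KO cells, near the start of the divergent gene BAG6, so the ratio does not compare the same position. The pSer2 region at the start of APOM had 8.54 fold in WT and 8.64 fold in KO cells, a ratio of 1.01. A further region over the 3′ end of APOM was listed under CSNK2B in WT cells, with 46.3 fold for RPB1, and the overlapping KO region, listed under C6orf47, had 25.8 fold. Both were stronger than APOM's own RPB1 region, and their summits lay past the end of APOM.

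The 10 genes were then set against all genes. The strongest RPB1 region was lower in KO cells by 1.5-fold or more at 4 of the 8 apolipoprotein genes listed in both cells (APOA5, APOE, APOM and APOH), against 36.1% of all genes. None was higher by as much, against 2.68% of all genes. All 8 ratios were below 1, between 0.438 and 0.939, with a median of 0.671 beside 0.742 for all genes. At regions annotated as promoters, 3 of 7 genes were lower, against 38.2%, and 0 were higher, against 2.12%, and the medians were 0.688 and 0.727. With the ratios divided by the median of all genes, APOA5 alone was lower by 1.5-fold, against 9.64% of all genes, and none was higher, against 11.3%. The strongest pSer2 region was lower by 1.5-fold or more at 2 of 8 genes, APOA2 and APOE, against 11.7% of all genes. It was higher at 1, APOA1 by its symbol, against 5.71%. Divided by the median, the pSer2 counts were 1 lower, APOE, and 1 higher, APOA1, against 8.35% and 8.44% of all genes. The counts lay near the shares of all genes, and are no result about the apolipoprotein genes.

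**Figure D4:**
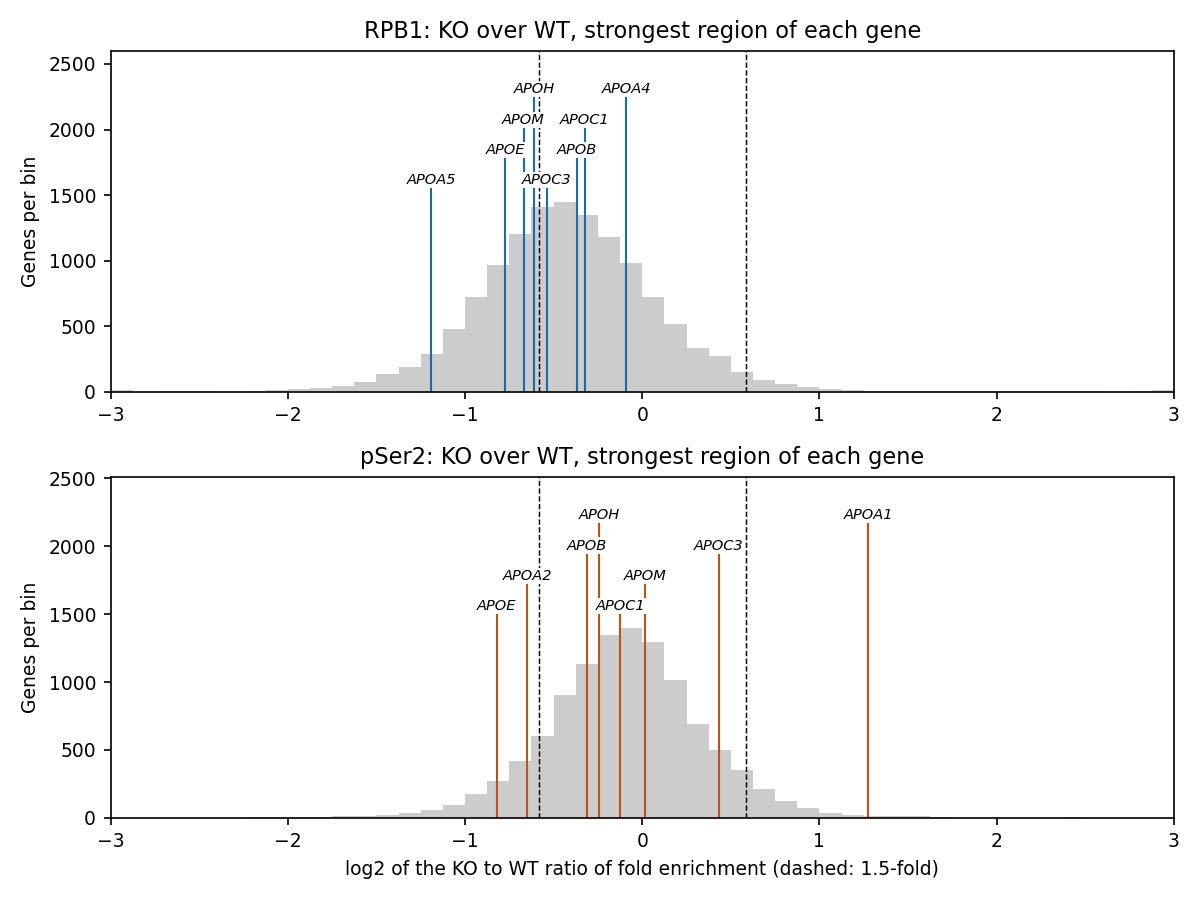
Number of genes per bin of the log2 KO to WT ratio of the strongest region, for RPB1 and pSer2, with values beyond 3 in either direction placed in the end bins, a line for each apolipoprotein gene listed in both cells and dashed lines at 1.5-fold. The RPB1 lines all lie left of 0, inside a distribution whose median ratio is 0.742, and APOA5 lies farthest left.

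RPB1 regions, whichever gene they were listed under, covered the apolipoprotein genes over more of their length than most genes. In the WT RPB1 list, 9 of 10 genes were covered over at least 90% of their length, all but APOA4. APOA5, APOC3 and APOM passed only with regions listed under ZPR1, APOA1-AS and CSNK2B. In KO cells APOM passed only with the region listed under C6orf47. The shares of all genes count regions of neighbours as well. Since short genes are covered more easily, genes were split at 5 kb, which leaves 8 short apolipoprotein genes and the longer APOB and APOH. Of the 8, 7 had an RPB1 region over them in each cell type, and 7 in WT and 6 in KO cells had a pSer2 region. Among the short ones, 7 of 8 were covered over 90% in WT cells, against 24.3% of all short genes with an RPB1 region, and 4 of 8 in KO cells, against 21.7%. APOB and APOH were covered over 90% in both cells, against 0.995% and 0.840% of longer genes. For pSer2, 2 of 8 short genes were covered over 90% in WT cells, against 20.4%, and 1 of 8 in KO cells, against 21.2%. APOB and APOH passed again in both pSer2 lists, against 2.28% and 2.16% of longer genes. The largest losses of RPB1 coverage from WT to KO cells were at APOA5 (95.7% to 23.2%) and APOC3 (91.4% to 41.3%), and the largest for pSer2 was at APOA1 (100% to 54.7%). Most of the APOA5 loss was in the ZPR1 region, which reached into the gene in WT cells (116787607 to 116791088) and not in KO cells. The region under APOA5's own symbol began at 116791196 in WT and at 116791269 in KO cells. At APOC3, part of the WT share came from the region listed under APOA1-AS.

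**Figure D5:**
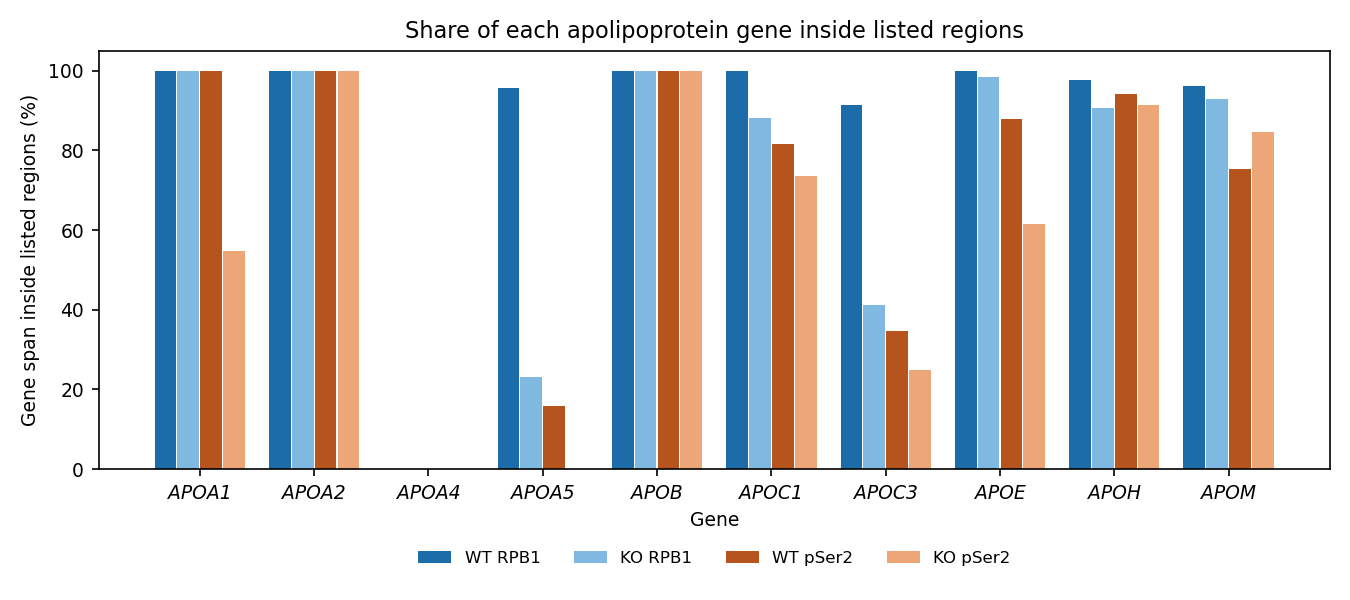
Share of each gene's length (%) inside the regions of each list, whichever gene the region was listed under, with 1 bar per list. APOB and APOA2 stand at 100% in all 4 lists, APOA4 at 0%, and the KO RPB1 bars of APOA5 and APOC3 are at 23.2% and 41.3%. The WT RPB1 bars of APOA5 and APOC3 include regions listed under ZPR1 and APOA1-AS.

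Most regions of the apolipoprotein genes were overlapped by a region of the other cell type when 1 bp was enough. Of 27 WT RPB1 regions, 19 were overlapped by a KO region by at least 1 bp (70.4%, 95% Wilson confidence interval 51.5 to 84.1, counting error only), and the other 8 were not, against 38.1% of all WT regions. Of 37 KO RPB1 regions, 2 were not overlapped, against 25.1%. For pSer2, 6 of 28 WT regions were not overlapped, against 47.8%, and 3 of 32 KO regions, against 30.1%. The regions of the apolipoprotein genes were also longer than others, with a median of 661 bp against 443 bp in the WT RPB1 list, and the part of length in the overlap was not tested. With a reciprocal overlap of 50%, only 33.3% of the WT and 21.6% of the KO RPB1 regions were shared. The regions unshared at 1 bp had at most 5.77 fold for RPB1 and 3.91 fold for pSer2, both in WT cells. The medians of all regions in those WT lists were 5.51 and 3.69 fold. Of 10 WT RPB1 regions of 2000 bp or longer, 6 were overlapped by 2 or more KO regions, at APOB, APOC1, APOE and APOH, against 50.3% of all such regions, a share near theirs. Of 8 such pSer2 regions, 2 were divided, at APOC1 and APOM, against 58.3%. These counts take regions under each gene's symbol. They leave out the WT pSer2 region of 5536 bp over APOA1, listed under APOA1-AS, which was divided in KO cells.

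The highest summit within 3 kb of each gene was placed relative to the gene end, whichever gene the region was listed under. For pSer2 it lay past the end at 8 of 9 apolipoprotein genes in WT cells, all but APOA2, against 44.6% of all genes, and at 8 of 9 in KO cells, all but APOA1, against 44.4%. For RPB1 it lay there at 3 of 10 in WT cells, against 7.36%, and at 3 of 10 in KO cells, against 7.18%. The 3 genes were APOA5, APOH and APOM in both lists. At APOA5 and APOM the summits past the end lie in regions listed under ZPR1, CSNK2B and C6orf47, and at APOC3 in a region shared with APOA1, so at these genes the position describes the neighbourhood. APOB, APOE, APOC1 and APOH had their pSer2 summit past the end in both cells with no other protein-coding gene of the annotation within the window past it. By summed length under each symbol, pSer2 exceeded RPB1 at 2 of 9 genes in WT cells, APOA1 and APOC1, against 57.5% of all genes, and at 0 of 6 in KO cells, against 55.7%. The APOA1 lengths, 1109 bp and 247 bp, are of regions upstream of the gene. The WT regions over APOA1, listed under APOA1-AS, had the opposite order, with 5536 bp for pSer2 and 6231 bp for RPB1. The APOC1 length counts the pSer2 region past the end of APOE.

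Other genes of the lipoprotein pathway were described with the same measure for RPB1. Of 14 other apolipoprotein genes, 8 had a region in both cells, with a median ratio of 0.739, and 4 were lower by 1.5-fold or more, near the 36.1% of all genes. Among them APOC2, the activator of lipoprotein lipase, had 37.8 fold in WT and 21.1 fold in KO cells for RPB1, and 25.0 and 7.85 fold for pSer2, a pSer2 ratio of 0.314. APOL3 had 13.1 and 6.48 fold for RPB1, whereas APOL6 (18.6 and 17.5 fold) and APOF (8.74 and 8.10 fold) differed least. Of 9 assembly genes, 8 were in both RPB1 lists, with a median of 0.825, 1 lower against the same 36.1% (SAR1B, of the vesicles that export lipoproteins, 23.5 and 14.8 fold) and 1 higher (SURF4, a cargo receptor, 6.61 and 10.7 fold), against 2.68% of all genes. PLTP, the phospholipid transfer protein, had 10.4 and 13.6 fold, and P4HB, a subunit of the triglyceride transfer protein, 37.2 and 30.1 fold.

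All 5 remodelling genes listed in both cells were lower by 1.5-fold or more for RPB1, against 36.1% of all genes, out of 12 genes of the list, with a median of 0.461. Some genes were listed in 1 cell type and are named after their values were seen. LCAT, which esterifies cholesterol on HDL, had 27.4 fold in KO cells and no RPB1 region under its symbol in WT cells. ANGPTL4 had 10.0 fold in WT cells and none under its symbol in KO cells. Regions over these genes listed under another gene were not looked for. For pSer2, LCAT had 10.8 fold in WT and 11.9 fold in KO cells, and ANGPTL4 had 3.87 fold in WT cells only. LIPG, endothelial lipase, had 25.1 fold in WT and 11.2 fold in KO cells, LIPC, hepatic lipase, had 7.52 and 4.38 fold, and LMF1, a lipase maturation factor, had 69.0 and 33.7 fold. All 6 receptor and efflux genes listed in both cells, of 8, were lower by as much, with a median of 0.482. ABCA1, which loads cholesterol onto APOA1, had 58.0 and 22.1 fold, LRP1 had 50.3 and 23.3 fold, and SCARB1, the HDL receptor, had 65.1 and 35.7 fold. For pSer2, the counts lower were 2 of 4 other apolipoprotein genes, 0 of 7 assembly genes, 0 of 4 remodelling genes and 1 of 6 receptor and efflux genes. The share of all genes was 11.7%, and none of these genes was higher by 1.5-fold. The pSer2 medians of the remodelling and of the receptor and efflux genes were 0.930 and 0.885, beside 0.936 for all genes. The RPB1 ratios of the receptor and remodelling genes lay further below the median of all genes than those of the apolipoprotein genes, a comparison with no test.

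The 6 apolipoprotein genes with a region in all 4 lists had median percentiles of the strongest region of 70.2 and 68.4 in the WT and KO RPB1 lists, and of 96.5 and 89.5 in the pSer2 lists. The genes did not all follow these medians: APOC3 went from percentile 42.1 for RPB1 to 7.49 for pSer2 in WT cells and from 37.7 to 30.0 in KO cells, and APOE from 86.9 to 77.8 in KO cells. The pSer2 percentile of APOC1 rests on the region past the end of APOE. Among 9237 genes in all 4 lists, RAB5IF, DHRS12 and RRP36 lay nearest to these medians, at Euclidean distances of 4.52, 4.64 and 5.02 percentile points.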

How the data were processed

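Antibodies against RPB1 and pSer2-RPB1 were used for ChIP-seq of WT and KO HepG2 cells, with 1 library each and 2 input libraries. Per the methods, the authors ran the MUGQIC pipeline, in which Trimmomatic removed adapters, BWA placed the reads on hg38 and MACS2 called narrow regions per library over its input (versions not given in the sources used here). Each deposited region carries its summit fold enrichment (a ratio), its p-value and q-value as −log10 (q at least 1.31), an annotation and a gene symbol. The authors' csaw table of KO against WT regions, which holds p-values and window counts, was not used.

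The highest fold enrichment per gene was compared over all genes with a region in both lists, with 1.5-fold for a call. Positions refer to Ensembl canonical transcripts of GENCODE release 44, and region positions to hg38. The functions were tested on simulated data. All 10 apolipoprotein genes are named, as are from each pathway list at most 2 genes with the highest and 2 with the lowest RPB1 ratio, and the 3 genes nearest in profile, except 2 pathway genes that are not reported here by name. The genes and lists were chosen with earlier results of these data known. The scripts ran under Python 3.11.15 with Matplotlib 3.10.9, pandas 2.3.3, SciPy 1.17.1 and NumPy 2.4.6. The depth is unknown, since no read counts were used. Alternatives were a −log10 q-value of at least 5, other gene assignments, another summary per gene, division by the median ratio, a 2-fold call, and other overlaps.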

Additional observations from a re-analysis of the deposited data

How the results depend on the processing

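No paired analysis was possible because each antibody and genotype had 1 library and the labels carry no replicate numbers. Assigning regions by a summit within 1 kb of the gene, a choice made after seeing the data, gave 12 and 24 RPB1 regions and 17 and 20 pSer2 regions in WT and KO cells in place of 27, 37, 28 and 32. The 4 RPB1 genes lower by 1.5-fold were 2 under this assignment, 1 with division by the median ratio and 1 with a 2-fold call, and with the median of a gene's regions 2 genes were higher in place of 0. The 3 lower promoter ratios were 1 after division by the median. The 2 genes lower for pSer2 were 1 after division, 0 with the median of regions or a 2-fold call, 4 with genes extended by 3 kb and 1 by summit, and the 1 higher gene was 0 under both assignments. APOE turned to an RPB1 ratio of 3.28 with the median of its regions. Of its 4 regions in each cell type, 1 lay over the gene in WT cells (62.1 fold) and 2 in KO cells (36.4 and 21.7 fold). The others were upstream, so this median turns on how the enrichment is divided into regions. APOA1 turned to a pSer2 ratio of 0.432 with its gene extended by 3 kb, since regions listed under its antisense transcript then count. Reciprocal overlap of 50% lowered the shared regions to 33.3% and 21.6% for RPB1 in WT and KO cells and to 53.1% for pSer2 in KO cells. A −log10 q-value of at least 5 raised them to 84.2% (WT RPB1) and 100% (KO pSer2), and left 1 WT and 2 KO genes with more pSer2 than RPB1 length. Of the other alternative values, 124 stayed within 1.5 times the reported value or within its interval, and 11 ratios of single genes moved further. Among these, 4 crossed 1: APOC3 for RPB1 (0.688 to 1.69) and APOB for pSer2 (0.807 to 1.45) with the median of regions, APOC3 for pSer2 (1.35 to 0.431) with genes extended by 3 kb, and APOC1 for pSer2 (0.918 to 1.44) by summit. Without read counts or replicates, no error of a fold enrichment can be given.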
